A study of Mus musculus with 12 samples.

Results

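The genes described here are 10 secreted components of Wnt signalling, namely the ligands Wnt2b, Wnt4, Wnt5a, Wnt5b and Wnt6, the R-spondins Rspo1, Rspo2 and Rspo3, and the inhibitors Sfrp1 and Dkk2. They were chosen by gene name, and they make up 10 of the 53801 genes counted. All 10 were listed in the normalized colon table of 32689 genes and 6 of them in the normalized blood table of 25514 genes.

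Wnt proteins are lipid-modified ligands that bind Frizzled receptors, and in the canonical branch they also engage the co-receptors LRP5 and LRP6, which stabilises beta-catenin and switches on target genes through TCF/LEF factors. R-spondins bind LGR receptors and draw off the ubiquitin ligases RNF43 and ZNRF3, which leaves more Frizzled at the cell surface, whereas SFRP proteins bind Wnts outside the cell and some DKK proteins block LRP5 and LRP6. In the colon the signal holds stem cells at the crypt base, and much of the ligand and R-spondin supply comes from the mesenchyme beneath the epithelium.

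The study sequenced total RNA from the colon and the whole blood of 6 male C57BL/6 mice aged 8 weeks. Mice 1, 2 and 4 carry the label UC (ulcerative colitis model), and mice 7, 8 and 9 the label control. By the study's design, colitis was caused by 7 days of 1.5% dextran sulphate sodium (DSS), a detergent-like polymer that injures the colonic epithelium. Controls drank water free of DSS, and day 8 was the end point for both groups. Which of the 6 mice took DSS is given here by the labels only. DSS colitis is a chemical injury of otherwise healthy inbred mice, and the 6 animals were selected from larger groups on a disease activity score.

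The libraries held between 69181049 and 103662306 counts in the colon and between 80867247 and 142536804 in the blood. Genes of red cells (5 of 5) and of colonocytes, the absorptive cells of the colon (8 of 8), separated the tissues without overlap. The disease labels did not follow the inflammation marker S100a8, a neutrophil calcium-binding protein: its normalized count in the colon was 5370, 33.1 and 22.3 in mice 1, 2 and 4 (labelled UC) and 1888, 75.6 and 13337 in mice 7, 8 and 9 (labelled control). High and low values thus occurred under both labels, so the groups below are named by their labels and the members' colon values are given per mouse. The study listed the ligand gene Wnt8b among its most lowered colon genes in UC and Abca12 among its most raised. By the labels their log2 fold changes here were -0.04 (SE 2.16) and -0.01 (SE 3.38). Whether some mice carry the wrong disease label was not tested, and every direction below is that of the labels only.

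Among the ligands, Wnt2b, a canonical ligand made by mesenchymal cells, had colon normalized counts of 640, 489 and 366 under the UC label (mice 1, 2 and 4) and of 826, 366 and 742 under the control label (mice 7, 8 and 9). Wnt5a, the main ligand of the non-canonical branch, had 760, 735 and 318 in mice 1, 2 and 4 against 857, 395 and 940 in mice 7, 8 and 9. Both ligands were lowest in mice 4 and 8, which carry different labels, and the groups overlapped for each.

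Wnt4, a ligand best known from kidney and female reproductive tract development, had 151, 222 and 104 normalized counts in mice 1, 2 and 4 and 209, 98.3 and 341 in mice 7, 8 and 9. Wnt5b, the close paralogue of Wnt5a, had 110, 175 and 67.6 in mice 1, 2 and 4 and 142, 69.3 and 146 in mice 7, 8 and 9. For these ligands too, mice 4 and 8 were the lowest and the groups overlapped. Wnt6, a ligand known from epithelia, ran differently, with 56.8, 61.8 and 89.9 normalized counts in mice 1, 2 and 4 against 45.5, 108 and 95.4 in mice 7, 8 and 9, so that mice 4, 8 and 9 were the highest.

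Of the R-spondins, Rspo3, which sustains Lgr5-positive stem cells at the crypt base, had 667, 502 and 408 normalized counts in the colon of mice 1, 2 and 4 and 1222, 460 and 815 in mice 7, 8 and 9. Rspo1 had 193, 10.5 and 9.07 in mice 1, 2 and 4 and 25.3, 34.0 and 115 in mice 7, 8 and 9. Rspo2 had 65.4, 14.8 and 32.2 in mice 1, 2 and 4 and 53.1, 7.56 and 33.3 in mice 7, 8 and 9. The R-spondins therefore differed in spread: the highest library stood 2.99-fold over the lowest for Rspo3, 8.64-fold for Rspo2 and 21.3-fold for Rspo1. Rspo1 was high in mice 1 and 9, 1 under each label, and Rspo2 in mice 1 and 7.

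The soluble inhibitor Sfrp1 had 2343, 1271 and 1097 normalized counts in mice 1, 2 and 4 and 3456, 1030 and 7105 in mice 7, 8 and 9. The LRP-binding inhibitor Dkk2 had 55.9, 86.2 and 50.3 in mice 1, 2 and 4 and 53.1, 40.3 and 222 in mice 7, 8 and 9. Both were highest in mouse 9, and for Dkk2 the remaining 5 libraries lay between 40.3 and 86.2.

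**Figure D1:**
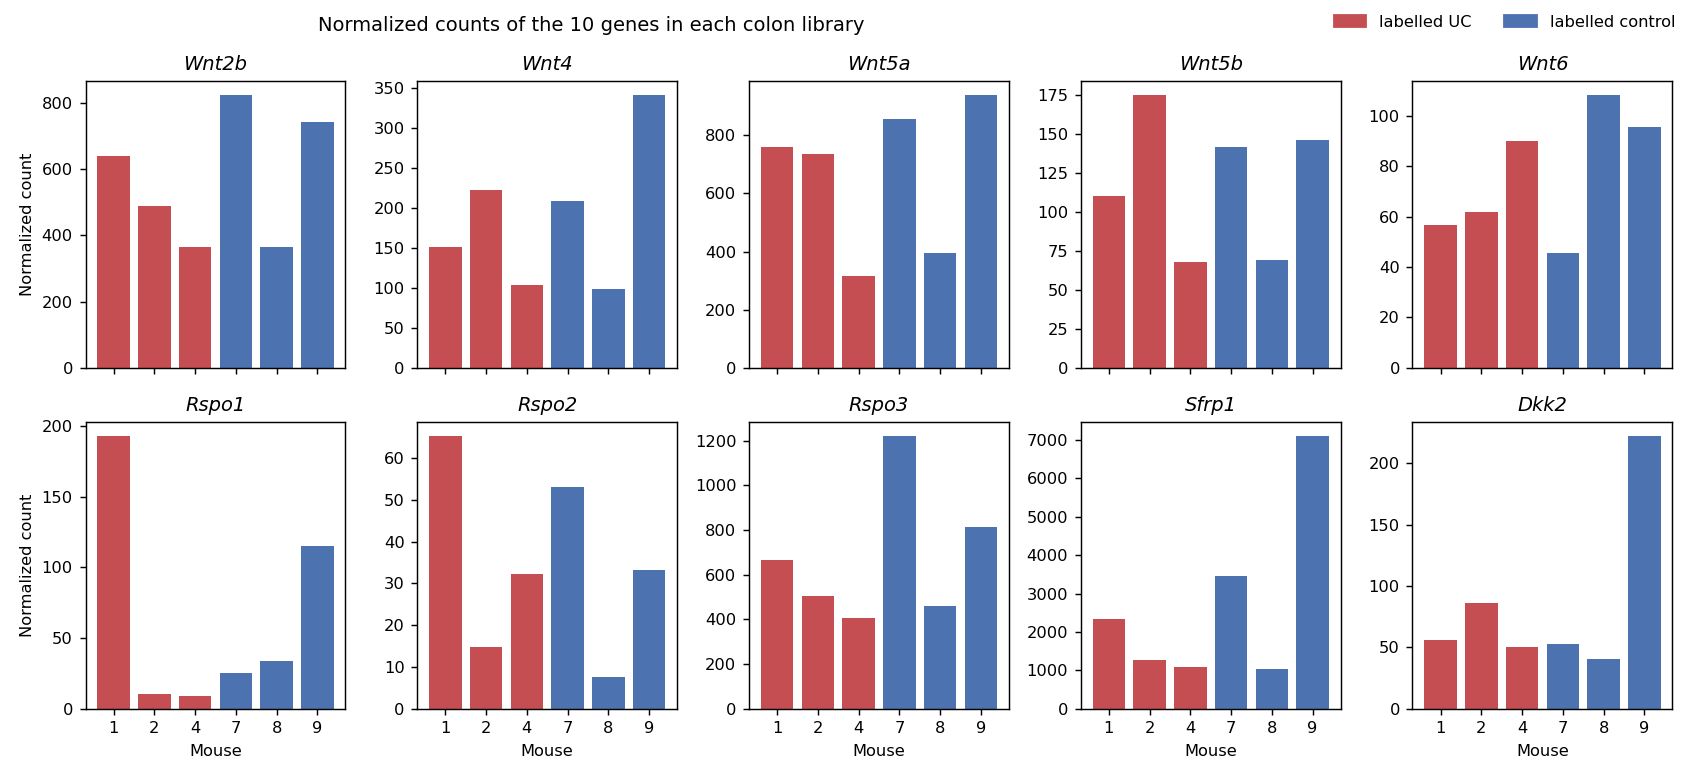
Normalized counts (y axis, linear and starting at 0, 1 scale per gene) of the 10 genes in the colon of mice 1, 2 and 4 (red, labelled UC) and mice 7, 8 and 9 (blue, labelled control), 1 bar per library. For each gene the red and blue bars overlap in height, Rspo1 stands out in mice 1 and 9, and Sfrp1 and Dkk2 are highest in mouse 9.

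The first comparison asked whether these genes differ in the colon between mice labelled UC and mice labelled control. None of the 10 passed the test (edgeR quasi-likelihood test, adjusted p of at most 0.05 and a log2 fold change beyond 1 in either direction), in a comparison that called 1 of 22238 genes (0.0045%). None reached an unadjusted p of 0.05, and every member had an edgeR adjusted p of 0.999948. In no member did the groups fail to overlap, against 5.67% of all genes tested. At the same limits the study, using DESeq2, reported far more genes between UC and control colon. With the labelled groups DESeq2 called 6 genes here, and the reason for this gap was not tested.

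The largest difference was that of Sfrp1, with a log2 fold change of -1.30 (SE 0.67, edgeR unadjusted p = 0.0955), from a mean of 3864 ± 3058 normalized counts (SD, n = 3) in libraries labelled control to 1571 ± 675 in those labelled UC. Dkk2 followed at -0.72 (SE 0.70), Rspo3 at -0.68 (SE 0.40), Wnt4 at -0.45 (SE 0.53), Wnt2b at -0.38 (SE 0.38), Wnt5a at -0.28 (SE 0.46) and Wnt6 at -0.27 (SE 0.45). Wnt5b stood at -0.03 (SE 0.49), Rspo2 at 0.24 (SE 0.82) and Rspo1 at 0.27 (SE 1.27). In all, 8 of the 10 estimates were below 0, with a median of -0.33 against -0.01 for all genes tested. An SE of 1.27 for Rspo1 means that a several-fold difference in either direction was not detectable with these libraries. Without mouse 9 the Sfrp1 estimate was -0.54, and without mouse 7 that of Rspo3 was -0.28. Leaving out 1 mouse moved Wnt2b to between -0.65 (without mouse 8) and -0.15 (without mouse 7) and Wnt6 to between -0.56 (without mouse 7) and -0.019 (without mouse 8). The Dkk2 estimate rested on mouse 9, without which it was 0.43, and the Rspo1 estimate on mouse 1, without which it was -2.57. Without mouse 9 the Wnt4 estimate was 0.02, without mouse 4 that of Wnt5a was 0.02, and Rspo2 turned to -0.42 without mouse 1 and to -0.21 without mouse 8.

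**Figure D2:**
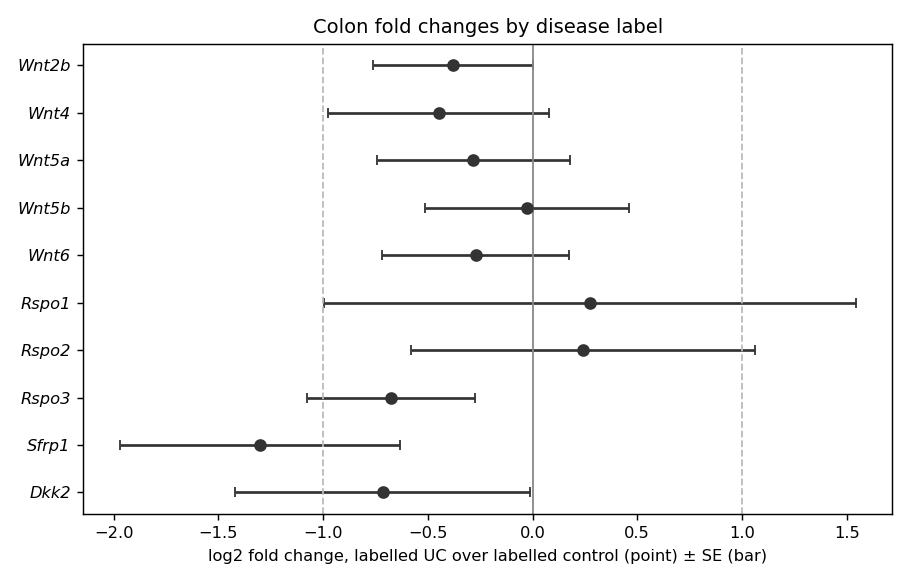
The log2 fold change in the colon, libraries labelled UC over those labelled control (x axis), with points for the edgeR estimates and bars for their SE; dashed lines mark the fold limit of 1 on the log2 scale. Of the 10 estimates, 8 lie below 0, Sfrp1 lies lowest at -1.30, and Rspo1 has the widest bar (SE 1.27).

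The libraries with the highest counts were the same for some of the genes and carried both labels. Mice 1, 7 and 9 gave the 3 highest normalized counts for 5 of the 10 genes, Wnt2b, Wnt5a, Rspo2, Rspo3 and Sfrp1, a set of libraries found in 18.3% of the 22123 genes with a mean of at least 10 normalized counts. For Wnt5a and Rspo2 the lowest of these 3 exceeded the next library by only 1.03-fold. Wnt4 and Wnt5b were highest in mice 2, 7 and 9, Rspo1 in mice 1, 8 and 9, Dkk2 in mice 1, 2 and 9, and Wnt6 in mice 4, 8 and 9. Mice 1, 7 and 9 are also those with the high S100a8 counts, and the set was chosen after these values were seen, so it is a description only.

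Markers of several cell types also differed between libraries, and not all in the same way. The summed normalized counts of 8 fibroblast genes were 135829, 113142 and 88244 in mice 1, 2 and 4 and 184187, 80423 and 233264 in mice 7, 8 and 9. All 8 of these genes were detected, and their sum ran from 88244 to 135829 under the UC label and from 80423 to 233264 under the control label. Col3a1 alone held a large part of it, 65382 in mouse 1 and 126610 in mouse 9. The sum of 6 neutrophil genes ran from 192 (mouse 2) to 46665 (mouse 9), and mice 1 and 7 had 13425 and 6309 where mice 4 and 8 had 232 and 398. That of 6 macrophage genes ran from 4891 in mouse 8 to 24757 in mouse 9. Smooth muscle ran differently, as the sum of its 8 genes was lowest in mouse 9 (132239) and mouse 1 (234849). It was highest in mouse 2 (546747) and mouse 4 (419726), and mouse 7 (371300) stood slightly above mouse 8 (361500). Of these 8 genes, 3 had mice 2, 4 and 8 highest and 0 had mice 1, 7 and 9. Of 10 genes of the crypt mesenchyme, 3 had mice 1, 7 and 9 highest and 4 had mice 2, 4 and 8. Of 6 glial and neuronal genes, 5 had mice 1, 7 and 9 highest and 0 had mice 2, 4 and 8. Over all genes these sets held 18.3% and 14.7%. The part of these cells in the levels of the Wnt genes was not tested, and in bulk tissue fewer cells of a type and less RNA per cell cannot be told apart.

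Set against the fibroblast sum, 9 of the 10 genes varied less over the libraries, and set against the smooth muscle sum all 10 varied more. The share of all genes that do so was not computed, and no other list was used in this way. These counts are therefore descriptions only, and the source of the RNA was not tested. The fibroblast sum was itself highest in mice 1, 7 and 9. For Wnt5b the spread hardly changed, at 2.48-fold in place of 2.59-fold. Wnt2b amounted to 4.71, 4.33 and 4.15 per 1000 normalized counts of the fibroblast genes in mice 1, 2 and 4 and to 4.48, 4.55 and 3.18 in mice 7, 8 and 9, a spread of 1.48-fold in place of 2.26-fold. Rspo3 amounted to between 3.49 (mouse 9) and 6.63 (mouse 7), a spread of 1.90-fold in place of 2.99-fold. The spread of Sfrp1 went from 6.90-fold to 2.71-fold on this scale, with mouse 9 still the highest at 30.5. Rspo1 went from 21.3-fold to 15.4-fold, and Wnt6 alone spread more, at 5.45-fold in place of 2.38-fold. Set against the sum of the 8 smooth muscle genes, the spread was 6.43-fold for Wnt2b, 6.71-fold for Rspo3, 23.1-fold for Sfrp1 and 45.6-fold for Rspo1.

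**Figure D3:**
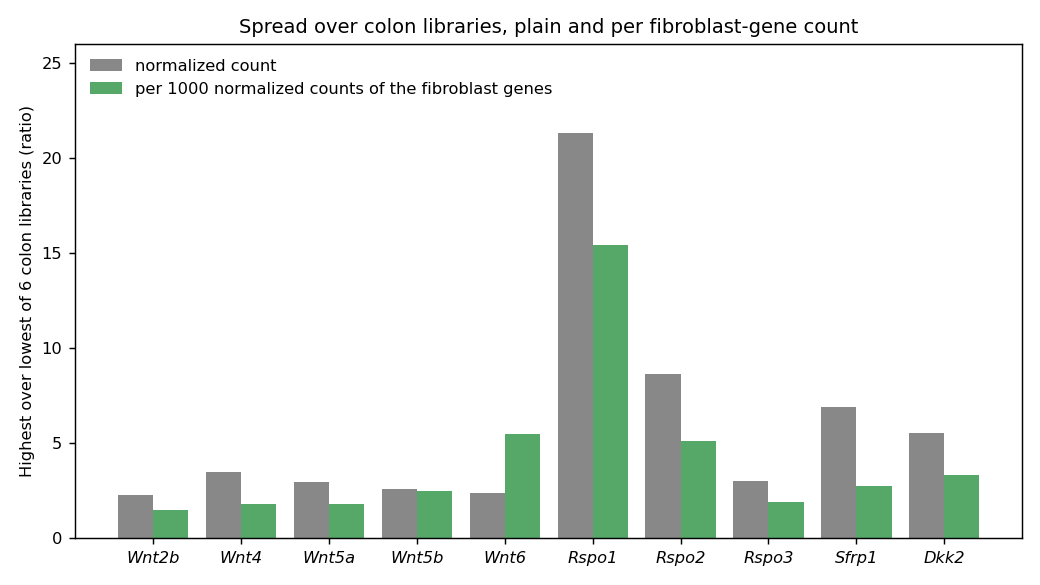
Ratio of the highest to the lowest of the 6 colon libraries (y axis, linear from 0) for each gene, as normalized counts (grey) and per 1000 normalized counts of the 8 fibroblast genes (green). The green bar is shorter than the grey one for every gene but Wnt6 (5.45 against 2.38), and Rspo1 remains tallest at 15.4.

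The high Rspo1 libraries were also those with the highest summed counts of genes of the mesothelium, the lining of the outer colon wall. The sum of 6 mesothelial genes was 4437 normalized counts in mouse 1 and 1598 in mouse 9, against 218 to 498 in the other 4 libraries. The order did not hold for 2 of the 6, since Upk1b was higher in mouse 7 (118) than in mouse 9 (90.0) and Gpm6a higher in mouse 2 (199) than in mouse 9 (186). All 6 of these genes were in the colon table, their sum ran from 289 to 4437 under the UC label and from 218 to 1598 under the control label, and their part in the Rspo1 level was not tested. Genes of squamous epithelium, which covers the anal end of the gut, summed to 25251 and 27780 in mice 1 and 7 and to at most 1605 in the others, but Abca12 alone held 24321 and 24051 of these counts, while Dsg3 and Krt13 were highest in mouse 9 (487 and 172).

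The upstream sequences of 3 members are given because their profiles mark the range seen: Rspo1, the most variable in the colon, Wnt6, the only member ligand with mice 4, 8 and 9 highest, and Wnt5b, the only member with counts in blood under a single label in more than 1 library. Each is the 200 bases before the RefSeq start on build GRCm38.p6, 5′ to 3′ on the gene's strand, at a start that equals the first base of the annotated gene.
Rspo1, chr4:124986230-124986429, plus strand: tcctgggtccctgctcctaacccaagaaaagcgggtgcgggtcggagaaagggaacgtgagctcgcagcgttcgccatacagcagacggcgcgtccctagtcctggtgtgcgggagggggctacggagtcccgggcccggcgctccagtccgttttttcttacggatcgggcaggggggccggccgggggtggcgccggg
Wnt6, chr1:74771692-74771891, plus strand: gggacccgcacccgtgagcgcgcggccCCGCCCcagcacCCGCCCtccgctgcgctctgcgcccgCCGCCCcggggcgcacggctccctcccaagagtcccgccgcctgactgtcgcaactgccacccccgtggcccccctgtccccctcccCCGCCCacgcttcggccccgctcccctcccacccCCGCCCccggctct
Wnt5b, chr6:119544348-119544547, minus strand: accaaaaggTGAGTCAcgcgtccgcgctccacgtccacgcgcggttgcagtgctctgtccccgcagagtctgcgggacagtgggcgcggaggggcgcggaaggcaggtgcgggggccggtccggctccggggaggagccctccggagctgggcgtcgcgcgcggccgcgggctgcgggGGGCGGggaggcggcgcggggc
Capitals mark matches, on either strand, to any of 6 motifs, whose share is given over all 32851 windows of this length before a RefSeq start. The TCF/LEF core CTTTGA occurs in 10.9% of them and the TATA box TATAAA in 9.96%. The AP-1 site TGANTCA occurs in 5.48% and the STAT site TTCCNGGAA in 0.761%. The GC box GGGCGG occurs in 31% and the CCAAT box in 29.3%. In the printed windows Wnt6 held 5 GC boxes, Wnt5b held 1 GC box and an AP-1 match 191 bases before the start, and Rspo1 held none of the 6 motifs. Wnt5b has further RefSeq starts whose sequences are not printed. Before these lay a STAT match at 159 bases and, at a different start, a TCF/LEF match at 71 bases and a GC box at 25 bases. GC content was 81.5% for Wnt6, 78.5% for Wnt5b and 69% for Rspo1, against a median of 53% over all these windows. RefSeq promoters were listed for 6 of the 10 members and began at the annotated gene start for 4 of them.

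Levels of different genes were compared as counts per kilobase of merged exon and per 1000000 counts in the library. On this per-length scale Sfrp1 was highest, at 7.50 ± 7.00 (SD, n = 6 colon libraries), followed by Rspo3 at 2.58 ± 1.17, Wnt2b at 1.60 ± 0.58 and Wnt5a at 1.01 ± 0.42. Then came Wnt4 at 0.54 ± 0.29, Wnt5b at 0.53 ± 0.22, Wnt6 at 0.41 ± 0.13, Rspo1 at 0.39 ± 0.45, Dkk2 at 0.28 ± 0.25 and Rspo2 at 0.079 ± 0.049. The ranges of all neighbours in this order overlapped between libraries. Within a library, however, Sfrp1 exceeded Rspo3, Rspo3 exceeded Wnt2b, Wnt2b exceeded Wnt5a and Wnt5a exceeded Wnt4 in 6 of 6, whereas Wnt4 exceeded Wnt5b in 1 of 6. Wnt4, Wnt5b, Wnt6, Rspo1 and Dkk2 could not be ranked beyond their spread.

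Rspo3 supplied most of the R-spondin RNA, from 64.7% of the per-length sum of 4 R-spondins in mouse 1 to 95.2% in mouse 2. Rspo1 supplied 29.9% in mouse 1, 17.9% in mouse 9 and 10.5% in mouse 8, and 3.09% to 3.27% in the others. Rspo3 exceeded Wnt2b by 1.40-fold to 2.01-fold on the per-length scale in the 6 libraries, a narrower range than its ratio to Sfrp1, which ran from 0.162 in mouse 9 to 0.632 in mouse 8. Wnt5a exceeded its paralogue Wnt5b by 1.42-fold to 2.35-fold.

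Among the ligands, Wnt2b held between 13.8% and 38.2% of the per-length sum of 19 Wnt genes and Wnt5a between 7.92% and 21.5%. The shares were low in mice 4 and 8, where Wnt8b, a ligand named here after its values were seen, held 43.3% and 52.4%. Its normalized count was 2.84, 399 and 772 in mice 1, 2 and 4 and 0, 1147 and 31.5 in mice 7, 8 and 9. The summed ligand level ran from 5.30 to 7.20, or from 3.21 to 7.09 without Wnt8b, while that of the R-spondins ran from 1.67 to 4.82 and that of 14 secreted inhibitors from 8.49 to 41.4. Sfrp1 (22.8% to 50.4%) and Dkk3 (32.6% to 45.8%) made up most of the inhibitor sum, and Dkk2 at most 1.86%. Dkk3 was listed by its family name, and its action on Wnt signalling was not tested.

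**Figure D4:**
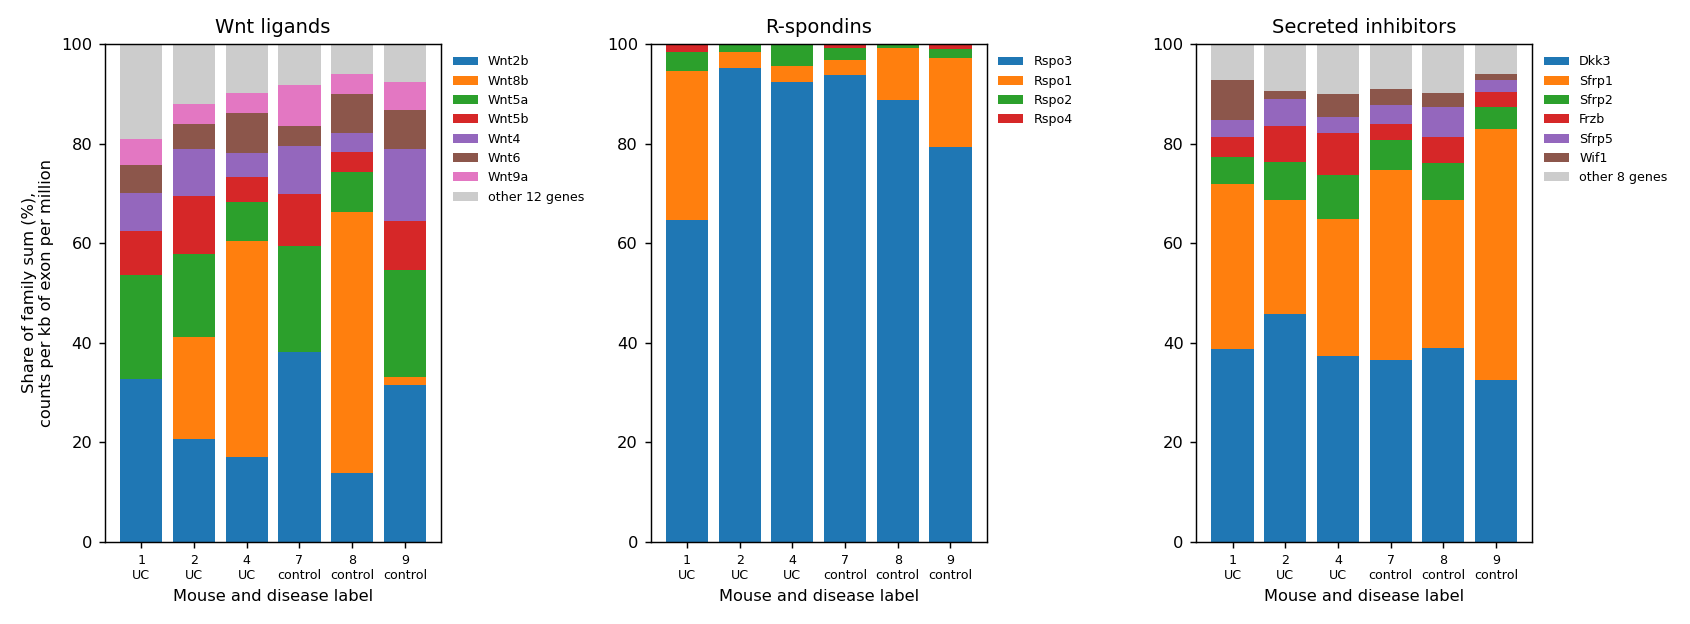
Share (y axis, %) of each gene in the per-length sum of its family, for 19 Wnt ligands, 4 R-spondins and 14 secreted inhibitors, with 1 stacked bar per colon library. Rspo3 fills 64.7% to 95.2% of the R-spondin bars, and Wnt8b is large in mice 2, 4 and 8 and near absent in the other 3 libraries.

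Members with a mean of at least 100 normalized counts were set beside 13625 genes of at least that level by the root mean square difference of their centred log2 profiles over the 6 colon libraries. Wnt2b was nearest to Sgcb (0.045), a sarcoglycan of the muscle membrane, then to Magi2. Wnt5a was nearest to the clock repressor Cry1 (0.065), then Plekhg2 and Fads3. Sfrp1 was nearest to the myeloid receptor Clec5a (0.053), then Ier3 and Col18a1. Clec5a had 178, 93.2 and 79.2 normalized counts in mice 1, 2 and 4 and 234, 71.8 and 514 in mice 7, 8 and 9, the same order of libraries as Sfrp1. The nearest genes were Loxl2, Cdr2l and Itgb3 for Wnt4, Ccdc80, Jph4 and Armcx2 for Wnt5b, and Phldb2, Apoe and Prickle1 for Rspo3, at 0.111 to 0.150. Wnt2b stood 31st in nearness to Rspo3, at 0.183, while Rspo3 stood 212th in nearness to Wnt2b. The other members stood further from Rspo3, with Wnt5a 1029th, Wnt5b 2619th, Wnt4 3075th and Sfrp1 7330th. A nearest profile picked from 13625 genes over 6 libraries is close by selection, and no likeness was tested.

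The pathway lists include the members and share some genes with each other. They gave no gene that passed the test in the colon by disease label: 0 of 11 tested ligands, 0 of 3 R-spondins, 0 of 9 secreted inhibitors, 0 of 18 receptors and co-receptors, 0 of 4 R-spondin receptors and their ligases, 0 of 2 secretion genes, 0 of 14 intracellular components, 0 of 13 target genes and 0 of 10 genes of the non-canonical branch. By median log2 fold change the tested ligands stood at -0.27, the inhibitors at -0.37, the receptors at -0.01 and the targets at 0.30. The median over all genes was -0.01.

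A single pathway gene had an unadjusted p under 0.05. Wnt2, a canonical ligand of the mesenchyme, had 80.5, 59.2 and 43.7 normalized counts in mice 1, 2 and 4 and 25.3, 37.8 and 21.6 in mice 7, 8 and 9, with a log2 fold change of 1.10 (SE 0.44, edgeR unadjusted p = 0.0456, adjusted p = 0.999948). Its groups did not overlap, with those labelled UC higher by a gap of 1.16-fold. Those of Wnt9a, Wnt16, the inhibitor Sfrp4 and the kinase gene Gsk3a did not overlap with those labelled UC lower. Of all 22238 genes tested, 780 and 482 did so in these directions. The gap was only 1.01-fold for Gsk3a, 1.02-fold for Sfrp4, 1.04-fold for Wnt9a and 1.09-fold for Wnt16. These genes came from lists of 11 tested ligands, 9 inhibitors and 14 intracellular components, and no other pathway list held such a gene. Of the other ligands, Wnt10b stood highest at 1.37 (SE 0.65) and Wnt16 lowest at -1.32 (SE 0.59). Among the BMP pathway genes the antagonist Grem1 had the lowest estimate, -1.85 (SE 1.05).

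Several target genes of beta-catenin were highest in other libraries than the 10 members. Mice 2, 4 and 8 gave the 3 highest normalized counts for 7 of 13 target genes, as for 14.7% of genes, and for 0 of the 10 members. Of the 11 ligands at that level 2, Wnt8b and Wnt10b, had the same 3 mice highest, and 3 had mice 1, 7 and 9. The difference between these lists was not tested. Lgr5, the stem cell receptor for R-spondins, had 103, 794 and 641 normalized counts in mice 1, 2 and 4 and 123, 725 and 34.2 in mice 7, 8 and 9. Axin2, a feedback inhibitor, had 457, 1994 and 1072 in mice 1, 2 and 4 and 478, 1592 and 760 in mice 7, 8 and 9. Ascl2, a stem cell transcription factor, had 16.1, 222 and 178 in mice 1, 2 and 4 and 19.0, 147 and 119 in mice 7, 8 and 9. Lgr4 had mice 2, 4 and 8 highest, as did Lgr5 and the ligase genes Rnf43 and Znrf3, which are among those target genes. For Lgr4 the lowest of these 3 libraries exceeded the next by only 1.02-fold, and for Znrf3 by 1.12-fold. Rspo3 and Sfrp1 were therefore high where Lgr5 was low, in mice 1, 7 and 9. Axin2, Ascl2 and Cd44 were picked with their values known. Other targets ran otherwise, among them the adhesion receptor gene Cd44, which had 5207, 2858 and 1618 in mice 1, 2 and 4 and 5323, 1379 and 6835 in mice 7, 8 and 9.

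**Figure D5:**
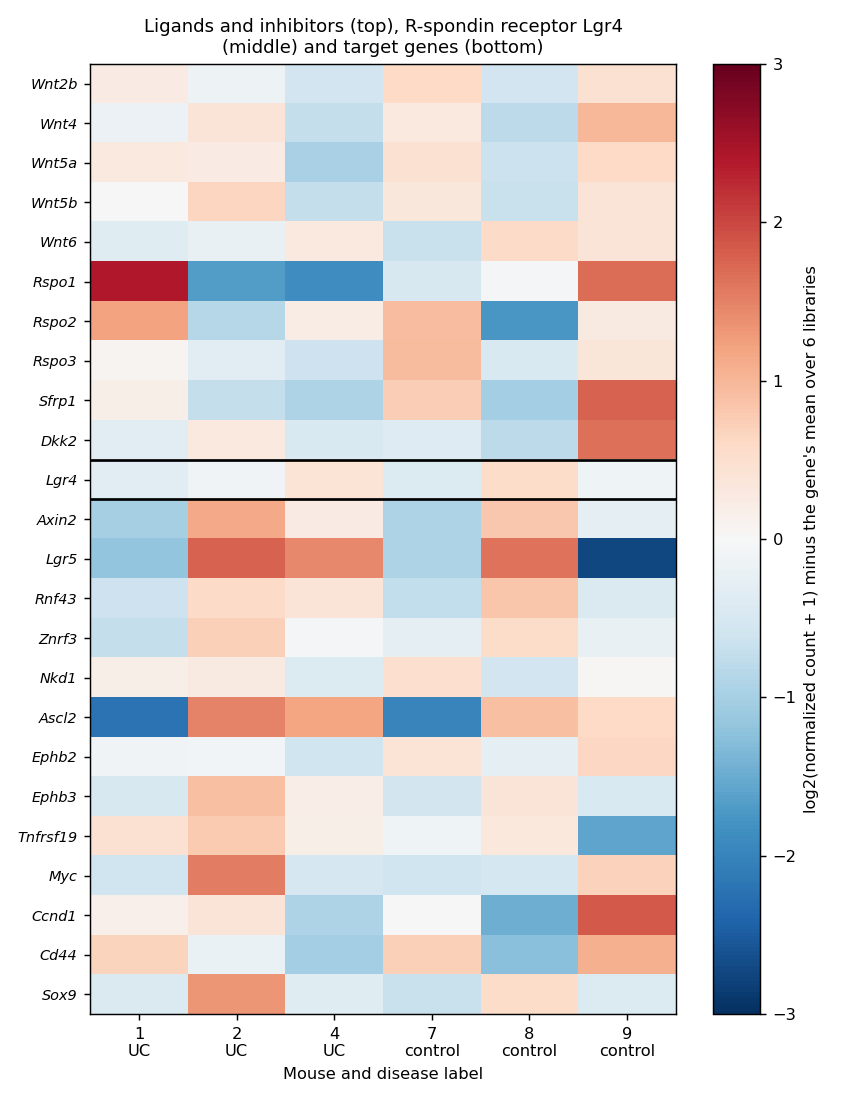
Colour gives log2(normalized count + 1) minus the gene's mean over the 6 colon libraries (scale from -3 to 3, columns are mice 1, 2, 4, 7, 8 and 9 with their disease label), for the 10 members (top), the R-spondin receptor Lgr4 (middle) and 13 target genes (bottom). Wnt2b, Rspo3 and Sfrp1 are red to near white in mice 1, 7 and 9, where Lgr5, Axin2 and Rnf43 are blue, while Cd44 follows the members.

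Whole blood held little RNA of these genes. Wnt2b, Wnt4, Rspo2 and Rspo3 had 0 counts in all 6 blood libraries, against 290 to 825, 78 to 379, 6 to 69 and 365 to 966 counts in the colon. Wnt5a had at most 6 counts in a blood library, Wnt6 at most 6, and Sfrp1 and Dkk2 at most 3. Rspo1 had 0, 0 and 14 counts in mice 1, 2 and 4 and 43, 3 and 18 in mice 7, 8 and 9. Counts this low are close to the detection limit.

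Between tissues, 9 of the 10 genes passed the test as higher in the colon (edgeR over 12 libraries), as did 37.7% of the 23258 genes tested. Colon and blood RNA were extracted and depleted of ribosomal RNA with different kits, the blood kit also removing globin RNA, so tissue and kit cannot be told apart. Against a floor of 3 counts in each blood library, and on the TMM scale of the test, the mean level in the colon was at least 68.5-fold higher for Rspo3, at least 57.6-fold for Wnt2b, at least 18.8-fold for Wnt4 and at least 3.46-fold for Rspo2. Rspo1 alone did not pass, with a log2 difference of 1.19 (SE 1.04, edgeR adjusted p = 0.324). That value rested on single mice: it was -0.51 without mouse 1 and 4.54, past the threshold, without mouse 4. With library size as the only scaling it was 3.20 and passed as well. With a replicate block for the mouse, the count of members higher in the colon was again 9, and Rspo1 again did not pass.

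In blood, the comparison by disease label called 0 of 16759 genes (0%) by edgeR, with 241 at an unadjusted p under 0.05 and 6 called by DESeq2. Rspo1 was the only member with enough counts to be tested, at a log2 fold change of -2.01 (SE 1.40, edgeR adjusted p = 0.9998). It was -3.13 by limma-voom and -1.15 without mouse 7, and without mouse 4 the libraries labelled UC were all at 0. Wnt5b had 17, 6 and 9 counts in mice 1, 2 and 4 (labelled UC) and 0 in each of mice 7, 8 and 9 (labelled control). Its groups did not overlap, with every library labelled UC above every one labelled control, as for 2.62% of the genes of the blood table. Against a floor of 3 counts in each library labelled control, its mean normalized count was at least 4.17-fold higher in those labelled UC, or at least 3.35-fold per library size. Without the filter on low counts the edgeR unadjusted p was 0.0057 and the adjusted p 0.986, so it did not pass. In the 4 alternatives that tested it the adjusted p ran from 0.525 to 0.999937.

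Whether the label difference itself differed between colon and blood was tested as an interaction, which called 0 of the 10 members and 1 of 23258 genes (0.0043%) by edgeR. For Wnt5b, whose colon groups overlapped, the unadjusted p was 3.46e-04 and the adjusted p 0.671. DESeq2, which called 19 genes (0.0817%), called it with an adjusted p of 0.0352, while with a replicate block in edgeR its adjusted p was 1, the ends of the range over 12 alternatives.

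Wnt5a and Rspo3 overlap antisense genes in the annotation. Wnt5a shares 358 exonic bases (4.58% of its exon length) with Gm2670, which had 6 to 17 counts in the colon, and Rspo3 shares 404 bases (13.1%) with Gm48159, which had 0 to 2 counts. The counting did not use strand, so reads in the shared bases cannot be told apart. On GRCm38, Sfrp1 lies at chr8:23411502-23449632 on the plus strand, Rspo3 at chr10:29452416-29535867 on the minus strand, Wnt2b at chr3:104945272-104961921 on the minus strand and Wnt5a at chr14:28504750-28527448 on the plus strand, and all 10 members are annotated as protein-coding.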

How the data were processed

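Total RNA was sequenced from colon and whole blood of the same 6 mice, 12 libraries in all. Per the labels and the study's methods, the authors aligned reads with STAR to GRCm38, quantified the genes of a given annotation with StringTie 1.3.4c without strand, and deposited whole-number read counts per gene. They also deposited, per tissue, a normalized signal in which counts were divided by a size factor, called normalized counts here.

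Counts were tested with edgeR 4.0.16 (quasi-likelihood test, TMM scaling, filterByExpr) in R 4.3.3, per tissue for the disease label and over 12 libraries for tissue and interaction, and calls needed a Benjamini-Hochberg adjusted p of at most 0.05 and an absolute log2 fold change over 1. The edgeR fits per tissue and the tissue contrast were run on simulated counts, while the interaction, DESeq2 and voom fits were not. The simulated spread was below the real one, whose biological coefficient of variation was 0.50 in colon and 0.42 in blood. That run therefore does not show what was detectable here. DESeq2 1.42.0, limma 3.58.1 (voom), other scalings, filters and leaving out each mouse were alternatives. Per-length levels were counts per kilobase of merged GENCODE exon and per 1000000 counts, and proximity of profiles used log2(normalized count + 1). Libraries held 69181049 to 142536804 counts, of which 7SL RNA took 35.9% to 65.4% in blood. Floors of 3 counts cover counting error only.

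Groups follow the tissue and disease characteristics in the labels, where the source name of each sample contradicted its tissue. The normalized tables list mice 1, 7 and 9 before mice 2, 4 and 8, and no group was taken from that order. Blood and colon of a mouse share its number by design, and their deviations from the group means correlated at -0.0151 (mouse 9) to 0.141 (mouse 1) over 23258 genes. The members and gene lists were chosen with earlier results of these data known. Named genes were the 10 members, in each pathway list the genes called, those at an unadjusted p under 0.05 and the lowest and highest fold change in the colon, the 3 nearest profiles of each member above 100 normalized counts, and S100a8; 1 of these genes is not reported here. Promoter sequences came from RefSeq on GRCm38.p6, matched by symbol. Replicates are separate mice.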

Additional observations from a re-analysis of the deposited data

How the results depend on the processing

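No member was called in the colon by disease label under any alternative run, and 118 of 130 alternative values of the members kept their sign. The other 12, from 6 members, reversed. Leaving out each mouse in turn gave log2 fold changes from -0.787 to 0.023 for Wnt4, -0.573 to 0.0192 for Wnt5a, -0.43 to 0.25 for Wnt5b, -2.57 to 1.23 for Rspo1, -0.42 to 0.86 for Rspo2 and -1.09 to 0.43 for Dkk2. The Rspo1 value was -0.98 by limma-voom; the cause was not tested. Between colon and blood, the Rspo1 difference ran from -0.51 to 4.54 when a mouse was left out and was 3.20 with library size as the only scaling, which called all 10 members. That scaling moved the median of all genes to 2.57 between tissues and to -0.27 in blood by disease label. The interaction called 1 member by DESeq2, Wnt5b, in place of 0, among 19 of 23258 genes. With the replicate block the count of members called was 9 between tissues and 0 for the interaction, and no call changed.

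With 3 mice per label, a difference of the size of the SEs given was not detectable. Without mouse 8 the colon comparison had 1942 of 23122 genes at an unadjusted p under 0.05, against 313 of 22238 with all mice, and no gene called, against 1. In blood most members lay at or under the floor of 3 counts per library.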
